A study of Mus musculus with 24 samples.

Results

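The 9 genes described here, Mecom, Hlf, Prdm16, Gata2, Tal1, Erg, Fli1, Lyl1 and Lmo2, encode transcription factors of blood stem cells. They were listed by name, with earlier results of these data known. All 9 were found among the 24421 gene lines of the count table and among the 14205 genes with enough counts to be tested. The libraries were bulk RNA-seq of lineage-negative, Sca1+ Kit+ cells sorted from the CD117-enriched bone marrow of male C57BL/6 mice. The aged mice were 107 weeks old and the young mice 12 weeks old. Sorted at each age were the long-term stem cell (LT-HSC, CD150+ CD48-), the short-term stem cell (ST-HSC, CD150- CD48-) and the multipotent progenitor (MPP, CD150- CD48+), which gave 6 groups of 4 libraries. No group carried a transgene, a mutation or a drug treatment in the labels. The labels do not say whether the 4 libraries of a group came from separate mice, so the p-values measure the spread between these libraries, which may in part be technical.

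A blood stem cell keeps its identity through a small circuit of DNA-binding proteins that occupy shared enhancers and one another's genes. GATA2, a zinc finger protein, TAL1 and LYL1, paralogous basic helix-loop-helix proteins that pair with E proteins, and the ETS factors ERG and FLI1 bind DNA in this circuit. LMO2 binds no DNA itself and bridges GATA and TAL1 or LYL1 to the adaptor LDB1. MECOM (the EVI1 protein and its longer MDS1-EVI1 form) and PRDM16 are related PRDM-family zinc finger proteins needed for stem cell maintenance. HLF is a basic leucine zipper protein of the PAR family and is widely used as a marker of stem cells at the top of the hierarchy.

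On the GRCm38 build, with GENCODE M21 annotation, Mecom lay on the minus strand at chr3:29951296-30548008, Hlf on the minus strand at chr11:90336536-90390895 and Prdm16 on the minus strand at chr4:154316125-154636873. Gata2 lay on the plus strand at chr6:88193891-88207032, Tal1 on the plus strand at chr4:115056426-115071755 and Lyl1 on the plus strand at chr8:84701457-84704715. Erg lay on the minus strand at chr16:95359169-95586593, Fli1 on the minus strand at chr9:32422204-32542861 and Lmo2 on the plus strand at chr2:103957986-103981878. The reads were counted over each gene as a whole, so that Mecom transcripts from its RefSeq start at base 30509759 and from its start at base 30013204, 496.6 kb apart, were counted together.

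Mecom and Prdm16 shared a stretch of sequence just after their start sites. RefSeq promoter windows, each of 250 bases before and 50 bases after a start, matched 7 of the 9 genes, with 12 start sites. Among these, a run of 24 identical bases stood at bases 27 to 50 after the distal Mecom start and at bases 10 to 33 after the Prdm16 start, within the annotated 5′ untranslated region of each. Of 32841 mouse promoter windows, 2 held this run, those of Mecom and Prdm16. The next longest run shared by any pair of these genes, Erg and Lyl1, was 14 bases of mostly G. The lines below give the 30 bases that end with the shared run, which is in capitals, from chr3:30509710-30509739 and chr4:154636841-154636870, both on the minus strand and 5′ to 3′.
Mecom: tctaacGCGCATGTGCGAAGGTGTCCAAAC
Prdm16: ctctgtGCGCATGTGCGAAGGTGTCCAAAC

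Mecom, Hlf, Prdm16 and Tal1 were the 4 genes that were lower in aged MPP, and the 250 bases before the start are given for the 3 of them whose window overlapped no annotated exon. The Hlf window was chr11:90390918-90391167, the Prdm16 window chr4:154636874-154637123 and the first Tal1 window chr4:115056176-115056425, from RefSeq on GRCm38.p6, each printed 5′ to 3′ on the strand of its gene. Capitals mark CANNTG, the E-box letters that basic helix-loop-helix proteins such as TAL1 bind, and GATAA on either strand (TTATC on the other), the letters that GATA factors bind.
Hlf: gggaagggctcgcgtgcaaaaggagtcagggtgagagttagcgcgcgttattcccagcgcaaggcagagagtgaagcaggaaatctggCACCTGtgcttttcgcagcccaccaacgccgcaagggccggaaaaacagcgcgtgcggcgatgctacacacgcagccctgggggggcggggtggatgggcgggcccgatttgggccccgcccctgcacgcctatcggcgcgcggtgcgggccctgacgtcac
Prdm16: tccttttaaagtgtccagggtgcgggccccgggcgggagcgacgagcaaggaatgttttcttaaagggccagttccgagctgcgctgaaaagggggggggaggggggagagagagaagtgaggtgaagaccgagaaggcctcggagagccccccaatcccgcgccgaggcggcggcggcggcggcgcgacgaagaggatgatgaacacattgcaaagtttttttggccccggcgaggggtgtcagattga
Tal1: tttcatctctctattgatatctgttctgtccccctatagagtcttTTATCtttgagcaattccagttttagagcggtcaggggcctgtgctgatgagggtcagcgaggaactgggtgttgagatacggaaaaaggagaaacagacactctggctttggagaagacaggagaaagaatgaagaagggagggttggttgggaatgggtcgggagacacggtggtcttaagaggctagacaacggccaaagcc
The Hlf window held 1 E-box, the Tal1 window 1 GATAA and the Prdm16 window neither. CANNTG occurred in 66.2% of all 32841 windows of 250 bases on either strand, and in 4 of the 12 windows of these genes. GATAA occurred in 22.6% of all windows and in 4 of the 12. AGGAAG, the letters of ETS factors such as ERG and FLI1, occurred in 29.5% of all windows and in 1 of the 12, a window of Erg, and TGTGGT, the letters of RUNX factors, in 14.0% of all windows and in 0 of the 12. None of the printed windows held both CANNTG and GATAA. These matches describe letters only and show no binding.

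Library totals ran between 7307151 and 12946550 counts, with a median of 8652939.5, and the 9 genes had between 83 counts (Prdm16 in aged MPP replicate 4) and 16321 counts (Hlf) in a library. Levels are given as CPM, read counts normalised for library size with trimmed mean of M-values (TMM) factors. Slamf1, which encodes CD150, had a mean of 72.1 CPM in aged LT-HSC, against 26.2 CPM in young LT-HSC (edgeR, adjusted p = 0.011), and was at most 1.93 CPM in any ST-HSC or MPP library. Cd48 was between 62.9 and 97.7 CPM in MPP libraries, between 7.64 and 16.0 CPM in ST-HSC libraries, which were sorted as CD48-, and at most 3.54 CPM in LT-HSC libraries. Markers of granulocyte and monocyte precursors took 0.0987% of counts in young LT-HSC replicate 1, above the other LT-HSC libraries, and between 0.252% and 0.319% in aged ST-HSC replicates 1, 2 and 3, against at most 0.0340% in the other ST-HSC libraries. The 4 libraries were left out in 1 of the alternative analyses, which leaves 1 aged ST-HSC library.

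Levels differed widely between the genes. Per kilobase of annotated exon sequence over all 24 libraries, Lmo2 stood highest at 464 CPM per kb, followed by Hlf at 151 CPM per kb and Lyl1 at 82.7 CPM per kb. Fli1 had 63.8 CPM per kb, Erg 62.3 CPM per kb, Gata2 54.0 CPM per kb and Tal1 35.4 CPM per kb. Mecom, at 17.9 CPM per kb, and Prdm16, at 10.5 CPM per kb, were the lowest of the 9. With the length of the longest transcript in place of all exons, Mecom had 39.1 CPM per kb and passed Tal1, at 36.8 CPM per kb, while Lmo2 had 589 CPM per kb. By that length Gata2 had 81.6 CPM per kb and passed Fli1, at 67.0 CPM per kb, and Erg, at 66.5 CPM per kb. Opposite-strand annotation overlapped exons of Mecom by 81 bases, of Prdm16 by 109 bases and of Lyl1 by 4 bases, and counts that do not use strand cannot tell such reads apart.

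**Figure D1:**
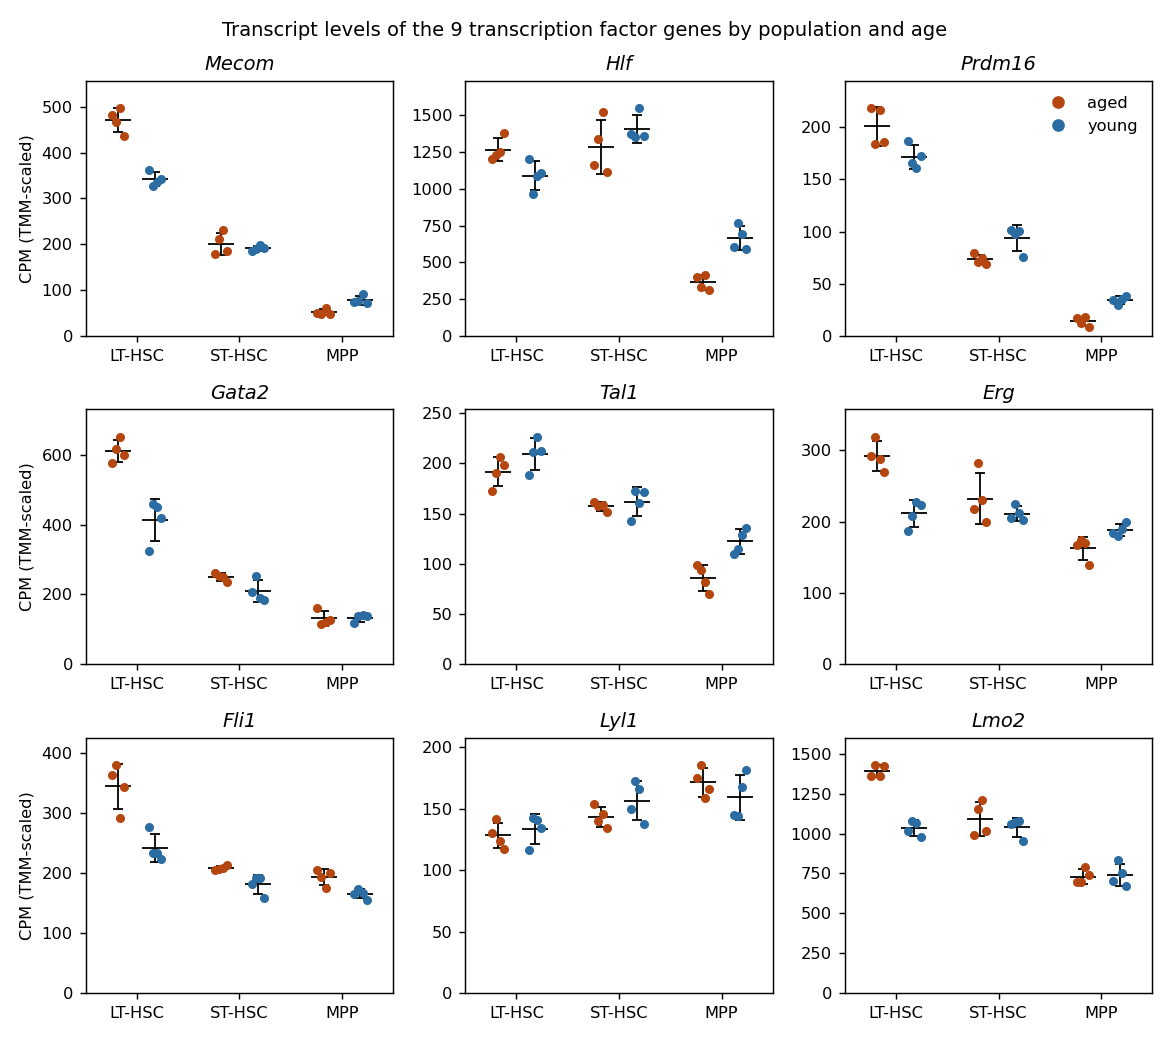
TMM-scaled CPM of each of the 9 genes (vertical axes, linear and starting at 0) in LT-HSC, ST-HSC and MPP, aged in orange and young in blue; points are libraries, long bars means and short bars 1 SD (n = 4). Mecom and Prdm16 step down over the 3 gates, and Hlf is high in both stem cell gates, while Lyl1 differs little between groups.

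Mecom stepped down over the gates at both ages. Its level was 482, 467, 497 and 436 CPM in aged LT-HSC and 363, 328, 336 and 343 CPM in young LT-HSC. In ST-HSC it was 179, 211, 231 and 185 CPM in aged libraries and 184, 190, 198 and 192 CPM in young libraries. In MPP it was 49.3, 48.9, 61.5 and 48.5 CPM in aged libraries and 73.2, 75.5, 92.6 and 71.3 CPM in young libraries. The order of the group means therefore ran aged LT-HSC, young LT-HSC, aged ST-HSC, young ST-HSC, young MPP and aged MPP. Only the 2 ST-HSC groups overlapped as neighbours in that order, and the highest group mean was 9.04-fold the lowest.

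Prdm16, the relative of Mecom, had the widest span, 14.4-fold between the highest and the lowest group mean. It was at 218, 184, 216 and 185 CPM in aged LT-HSC and at 186, 166, 161 and 172 CPM in young LT-HSC, and these groups overlapped. It was at 79.0, 71.2, 74.2 and 68.9 CPM in aged ST-HSC and at 102, 97.3, 101 and 75.6 CPM in young ST-HSC, again with overlap. In MPP the libraries separated, with 17.5, 12.3, 18.0 and 8.14 CPM in the aged and 34.8, 29.2, 35.8 and 38.1 CPM in the young.

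Hlf followed another order, since both stem cell gates had high levels. It was at 1205, 1226, 1247 and 1380 CPM in aged LT-HSC and at 1200, 961, 1086 and 1105 CPM in young LT-HSC. In ST-HSC it was at 1163, 1336, 1522 and 1117 CPM in the aged and at 1373, 1351, 1546 and 1357 CPM in the young. In MPP it was at 399, 334, 413 and 310 CPM in the aged and at 607, 769, 694 and 590 CPM in the young. Young ST-HSC had the highest mean, 1407 ± 93.4 CPM (SD, n = 4), and it overlapped aged ST-HSC, which overlapped aged LT-HSC. Young LT-HSC, young MPP and aged MPP then followed without overlap between neighbours.

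Gata2 was highest in aged LT-HSC, at 575, 616, 651 and 599 CPM, against 325, 459, 449 and 418 CPM in young LT-HSC, with replicate 1 the lowest of the young. In ST-HSC the 2 ages overlapped, with means of 251 ± 10.9 CPM in the aged and 209 ± 31.5 CPM in the young (SD, n = 4 each), and in MPP with means of 132 ± 20.8 CPM in the aged and 134 ± 11.3 CPM in the young. Lmo2 had means of 1394 ± 39.1 CPM in aged LT-HSC and 1035 ± 47.2 CPM in young LT-HSC, and its libraries separated there. The 4 aged LT-HSC libraries of Lmo2 were at 1360, 1429, 1361 and 1427 CPM, above the 1016, 1082, 1064 and 978 CPM of the young ones. The Lmo2 level of young LT-HSC overlapped that of young ST-HSC, and young ST-HSC overlapped aged ST-HSC. The 2 MPP groups overlapped as well, with means of 730 ± 44.6 CPM in the aged and 740 ± 70.7 CPM in the young (SD, n = 4 each).

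The ETS genes showed the same separation in LT-HSC. Erg was at 292, 319, 287 and 269 CPM in aged LT-HSC and at 187, 208, 228 and 223 CPM in young LT-HSC. Fli1 was at 363, 379, 292 and 343 CPM in aged LT-HSC and at 277, 234, 233 and 223 CPM in young LT-HSC. No aged library of either gene fell within the range of the young ones. In the order of its means, Erg in young LT-HSC (211 ± 18.6 CPM) overlapped young ST-HSC (211 ± 10.1 CPM; SD, n = 4 each), and Fli1 spanned 2.08-fold in all.

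The paralogs Tal1 and Lyl1 had different patterns. Tal1 was at 173, 191, 206 and 198 CPM in aged LT-HSC and at 188, 212, 227 and 212 CPM in young LT-HSC, with overlap, and its 4 LT-HSC and ST-HSC groups formed an unbroken series of overlapping neighbours. In MPP its libraries were at 99.2, 93.9, 81.9 and 70.4 CPM in the aged and at 110, 115, 129 and 136 CPM in the young, without overlap. Lyl1 was the flattest gene, with 1.34-fold between its highest mean, 171 ± 11.5 CPM in aged MPP, and its lowest, 128 ± 10.3 CPM in aged LT-HSC (SD, n = 4 each). Each of the 5 neighbouring pairs in the order of Lyl1 overlapped.

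The first comparison asked how age changed these genes in LT-HSC. Mecom, Gata2, Erg, Fli1 and Lmo2, 5 of the 9, were higher in aged LT-HSC and 0 were lower. Over all 14205 genes, 18.9% were called in this comparison, 9.98% as higher and 8.87% as lower (edgeR quasi-likelihood test, Benjamini-Hochberg adjusted p under 0.05). The median log2 change of the 9 genes was 0.43, beside 0.00 over all genes. Fli1 was 1.43-fold higher, with a log2 change of 0.51 ± 0.083 (SE, adjusted p = 6.3e-05), and Lmo2 1.35-fold, with a log2 change of 0.43 ± 0.074 (adjusted p = 0.00014). Gata2 was 1.48-fold higher, with a log2 change of 0.56 ± 0.11 (adjusted p = 0.00049). Mecom was 1.38-fold higher, with a log2 change of 0.46 ± 0.088 (adjusted p = 0.00048), and Erg 1.38-fold, with a log2 change of 0.46 ± 0.091 (adjusted p = 0.00058). These 5 genes, the DNA-binding GATA and ETS factors, the bridging protein LMO2 and the PRDM-family MECOM, passed the test in each of the 14 alternative analyses as well, the one without the libraries with high precursor markers included.

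The other 4 did not pass in LT-HSC. Hlf had a log2 change of 0.22 (95% interval 0.0071 to 0.43, adjusted p = 0.14), and its 4 aged libraries lay above the young ones by a narrow margin, 1205 CPM for the lowest aged and 1200 CPM for the highest young library. Prdm16 had a log2 change of 0.23 (95% interval -0.059 to 0.52, adjusted p = 0.28). Tal1 had a log2 change of -0.13 (adjusted p = 0.37) and Lyl1 of -0.058 (adjusted p = 0.72). Groups did not overlap for 6 of the 9 genes, beside 22.1% of all genes.

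In bulk samples, more or fewer cells of a type within the gate and more or less RNA per cell cannot be told apart. Endothelial cells also express several of the 9 genes, Erg, Fli1, Tal1 and Lmo2 among them. Markers of these cells took 0.00519% of counts in aged LT-HSC (0.00470% to 0.00603%) and 0.00236% in young LT-HSC (0.00171% to 0.00375%). An exact permutation test, two-sided, gave p = 0.0286, the smallest that 4 against 4 can give, and adjusted p = 0.14 over 15 tests. Of the 8 endothelial markers, 1 was at 0 in each aged LT-HSC library and 1 to 3 in the young ones. Kdr, a VEGF receptor gene, made up most of that share in aged LT-HSC, with 32.7 ± 4.12 CPM, against 8.98 ± 3.39 CPM in young LT-HSC (SD, n = 4 each). It was called higher in aged LT-HSC (edgeR, 3.65-fold, adjusted p = 0.0013), the 1 called of the 6 endothelial markers tested. Without Kdr, the most abundant marker, the shares were 0.00191% in aged LT-HSC and 0.00142% in young LT-HSC (exact permutation p = 0.20). Most of the aged share left lay in markers of the list that are not given singly for this gate. The endothelial cadherin gene Cdh5, at 0.287 CPM in aged LT-HSC, and Sox17, at 0.0302 CPM, held little of it. The part of these shares in the LT-HSC results was not tested. Of the 15 tests of marker shares, over 5 lists and 3 gates, none passed after adjustment; at an unadjusted p of 0.0286 stood the endothelial list in LT-HSC and MPP and the mast cell, basophil and eosinophil list in ST-HSC, where those markers made up 0.00139% of the counts of aged libraries, against 0.000384% in young ones.

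**Figure D2:**
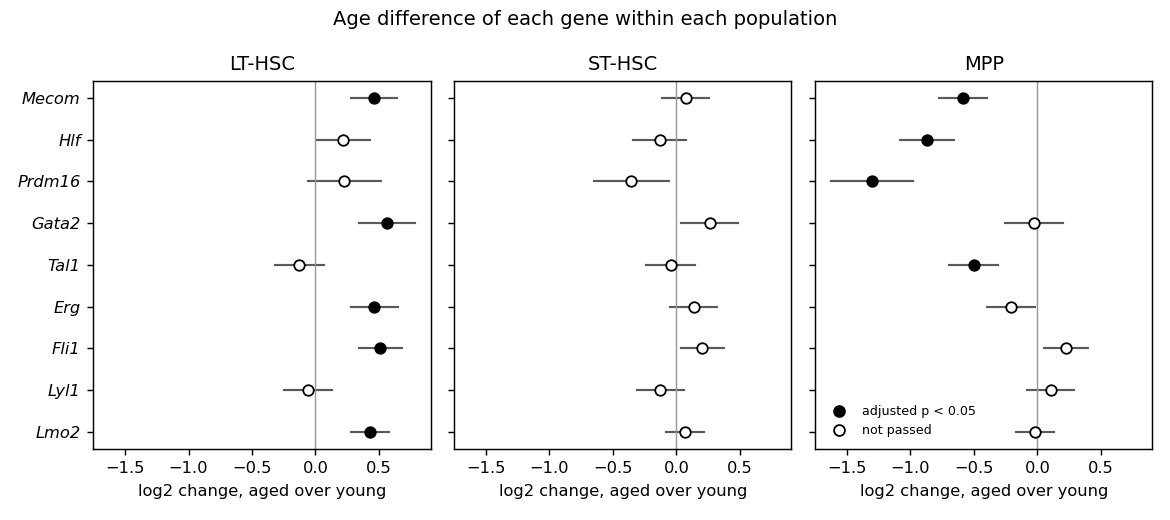
Log2 change, aged over young, of each gene (rows) in LT-HSC, ST-HSC and MPP (columns), with 95% intervals; filled points passed an adjusted p of 0.05. The 5 filled points in LT-HSC lie right of 0, and the 4 in MPP left of 0, with none filled in ST-HSC.

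In ST-HSC the test called 0 of the 9 genes (edgeR; 5.79% of all genes were called, 3.58% higher and 2.21% lower). At an unadjusted p under 0.05 there were 3, Prdm16, Gata2 and Fli1, and DESeq2 also called 0. Prdm16 had the largest difference, a log2 change of -0.36 (95% interval -0.65 to -0.062, adjusted p = 0.16). Gata2 had a log2 change of 0.26 (adjusted p = 0.17). Fli1 had a log2 change of 0.20 (adjusted p = 0.16) and was the 1 gene whose groups did not overlap, with 205, 207, 208 and 213 CPM in aged ST-HSC and 182, 191, 192 and 158 CPM in young ST-HSC. The share of all genes without overlap was 10.9%. Mecom had a log2 change of 0.072 (95% interval -0.11 to 0.25) and Hlf of -0.13 (95% interval -0.34 to 0.078). Without the 4 libraries with high precursor markers, still 0 of the 9 passed, with changes of -0.44 for Prdm16, 0.19 for Gata2, 0.24 for Fli1 and -0.32 for Hlf. The direction turned there for Mecom (-0.042), Erg (0.14 with all libraries, -0.072 without the 4) and Lmo2 (0.069 with all libraries, -0.026 without the 4). The count over all genes was 823, against 184 without the 4 libraries, 534 with only the groups compared, 543 without young ST-HSC replicate 2 and 503 without young ST-HSC replicate 3. Markers of granulocyte and monocyte precursors took 0.0173% to 0.319% of counts in aged ST-HSC and 0.00874% to 0.0340% in young ST-HSC (exact permutation test, p = 0.0571, adjusted p = 0.17), and their part in these values was not tested.

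In MPP the genes called with age were lower, not higher. Prdm16, Hlf, Mecom and Tal1, 4 of the 9, were lower in aged MPP and 0 were higher, beside 9.79% of all genes called, 4.27% lower and 5.53% higher. Prdm16 was 2.47-fold lower, with a log2 change of -1.30 ± 0.16 (SE, adjusted p = 4.7e-06). Hlf was 1.83-fold lower, with a log2 change of -0.87 ± 0.10 (adjusted p = 3.4e-06). Mecom had a log2 change of -0.59 ± 0.093 (adjusted p = 0.00014). Tal1 was 1.42-fold lower, with a log2 change of -0.50 ± 0.096 (adjusted p = 0.0010). For each of these 4 genes every aged library lay below every young one, and each passed in all 14 alternative analyses. Over all genes 1391 were called, and 914 without aged MPP replicate 4.

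The remaining 5 genes did not pass in MPP. Erg was at 167, 174, 170 and 139 CPM in aged MPP and at 183, 179, 189 and 199 CPM in young MPP, with a log2 change of -0.21 (adjusted p = 0.15) although the groups did not overlap. Fli1 was at 205, 193, 175 and 200 CPM in aged MPP and at 166, 173, 167 and 156 CPM in young MPP, with a log2 change of 0.22 (adjusted p = 0.087), which passed without aged MPP replicate 3 (adjusted p = 0.0495). Lyl1 had a log2 change of 0.10 (adjusted p = 0.53), Gata2 of -0.025 (adjusted p = 0.93) and Lmo2 of -0.019 (adjusted p = 0.92). Groups did not overlap for 6 of the 9 genes, beside 16.5% of all genes, and the median log2 change of the 9 was -0.21, beside -0.00 over all genes. Granulocyte and monocyte precursor markers took 0.150% to 0.552% of counts in aged MPP and 0.0759% to 0.331% in young MPP (exact permutation test, p = 0.11, adjusted p = 0.24), and endothelial markers 0.00118% to 0.00368% in aged MPP and 0.000552% to 0.000811% in young MPP (exact permutation test, p = 0.0286, adjusted p = 0.14). Of these, Stab2 was called higher in aged MPP (16.5 CPM, against 2.22 CPM in young MPP, adjusted p = 0.00085, edgeR), as was Fabp4 (2.02 CPM, against 0.118 CPM in young MPP, adjusted p = 0.044). Their part in the MPP results was not tested.

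The second set of comparisons set the gates against each other within an age. Precursor markers of granulocytes and monocytes averaged 0.00756% of counts in aged LT-HSC, against 0.390% in aged MPP, and their part in the gate differences was not tested. In aged mice, LT-HSC over MPP called all 9 genes, 8 higher and 1, Lyl1, lower, beside 56.8% of all genes called, 28.3% higher and 28.5% lower, and the groups overlapped for none of them, beside 51.2% of all genes without overlap. In young mice the same comparison called 7 higher and 1, again Lyl1, lower, beside 37.2% of all genes, 18.9% higher and 18.3% lower, and the groups did not overlap for 8 genes, beside 36.1% of all genes. Prdm16 was 14.4-fold higher in LT-HSC than in MPP in aged mice, and 4.97-fold higher in young mice. Mecom was 9.04-fold higher in aged and 4.38-fold higher in young mice, and Gata2 4.63-fold in aged and 3.08-fold in young mice. Hlf was 3.47-fold higher in aged and 1.64-fold higher in young mice. For Erg the aged fold was 1.80 (adjusted p = 1.2e-08), and the young fold of 1.13 did not pass (log2 difference 0.17, 95% interval -0.014 to 0.36, adjusted p = 0.14) except without the 4 libraries with high precursor markers (0.24, adjusted p = 0.031). Lyl1 ran against the rest, with a log2 difference of -0.42 in aged mice (adjusted p = 0.00031) and -0.26 in young mice (adjusted p = 0.028), the second of which was lost in 6 alternatives, with adjusted p up to 0.15.

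The neighbouring gates placed the steps. In aged LT-HSC over aged ST-HSC, 7 genes were higher and 0 lower, beside 32.3% of all genes called, 16.2% higher and 16.1% lower (4582 genes, 2640 without the 4 libraries). The groups did not overlap for 6 of the 9, beside 28.1% of all genes, with Prdm16 at 2.74-fold, Gata2 at 2.43-fold and Mecom at 2.34-fold. Hlf had a log2 difference of -0.023 there (95% interval -0.23 to 0.19), which turned to 0.16 without the 4 libraries with high precursor markers and to 0.057 without aged ST-HSC replicate 3. In aged ST-HSC over aged MPP, 7 were higher and 1, Lyl1, lower, beside 29.9% of all genes called, 15.5% higher and 14.4% lower (4244 genes, 1353 without the 4 libraries). The groups did not overlap for 8 of the 9, beside 27.3% of all genes, with Prdm16 at 5.25-fold, Mecom at 3.86-fold and Hlf at 3.53-fold. The aged LT-HSC over ST-HSC call of Tal1 (log2 difference 0.29, adjusted p = 0.020) was lost in 4 alternatives, with adjusted p up to 0.18, and the aged ST-HSC over MPP call of Lyl1 (log2 difference -0.26, adjusted p = 0.032) in 6, up to 0.14. The aged ST-HSC over MPP difference of Erg, 0.52 (adjusted p = 0.00011), was 0.30 without the 4 libraries with high precursor markers (adjusted p = 0.13).

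In young mice, LT-HSC over ST-HSC called Mecom, Prdm16, Gata2, Tal1 and Fli1, 5 genes, higher and 1 lower, beside 12.5% of all genes, 6.79% higher and 5.74% lower, and the groups did not overlap for 6, beside 17.5% of all genes. Gata2, at 1.98-fold, Prdm16, at 1.82-fold, and Mecom, at 1.79-fold, were the furthest up, and Hlf was lower in LT-HSC, with a log2 difference of -0.37 (adjusted p = 0.014). That Hlf call was lost without young LT-HSC replicate 2, the lowest of its group (adjusted p = 0.081), and without young ST-HSC replicate 3, the highest of its group (adjusted p = 0.084). Young ST-HSC over young MPP called 6 higher and 0 lower, beside 20.6% of all genes, 10.5% higher and 10.1% lower. The groups did not overlap for 7 of the 9, beside 24.7% of all genes, with Prdm16 at 2.72-fold, Mecom at 2.45-fold and Hlf at 2.12-fold. The aged and young comparisons share no library, and whether they differ is tested by the differences of age effects.

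**Figure D3:**
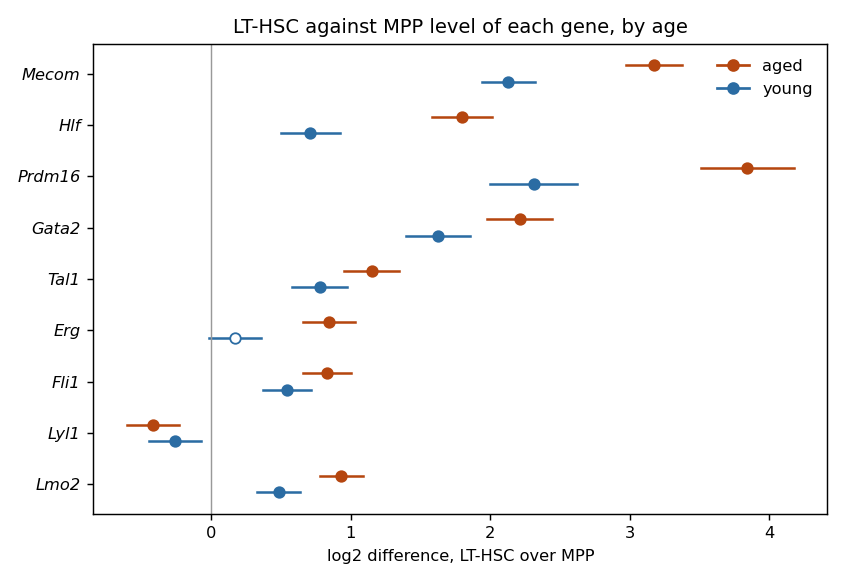
Log2 difference, LT-HSC over MPP, of each gene in aged mice (orange) and young mice (blue), with 95% intervals; the open point did not pass an adjusted p of 0.05. Prdm16 is at 3.84 in aged and 2.31 in young mice and Mecom at 3.18 in aged and 2.13 in young mice, while Lyl1 lies below 0 at both ages.

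The age effect, as a signed log2 change, was higher in LT-HSC than in MPP for 6 of the 9 genes and lower for 0. Of all genes, 9.93% were called, 5.05% higher and 4.89% lower. Hlf and Prdm16 were called with age only in MPP, where they were lower. Erg, Gata2 and Lmo2 were called only in LT-HSC, where they were higher, and Mecom was called in both. The difference of age effects is also the amount by which the LT-HSC over MPP gap was wider in aged than in young mice. For Prdm16 the difference was 1.53 ± 0.21 on the log2 scale (SE, adjusted p = 2.9e-05), for Hlf 1.09 ± 0.15 (adjusted p = 1.8e-05) and for Mecom 1.05 ± 0.13 (adjusted p = 5.7e-06). For Erg it was 0.67 ± 0.13 (adjusted p = 0.0010), for Gata2 0.59 ± 0.15 (adjusted p = 0.015) and for Lmo2 0.45 ± 0.10 (adjusted p = 0.0063). The Gata2 difference was 0.46 without the 4 libraries with high precursor markers (adjusted p = 0.051). Tal1 (0.37, adjusted p = 0.075), Fli1 (0.29, adjusted p = 0.12) and Lyl1 (-0.16, adjusted p = 0.47) did not pass, and Tal1 passed without aged MPP replicate 1 (adjusted p = 0.044) and Fli1 without young LT-HSC replicate 1 (adjusted p = 0.044).

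The signed age effect was higher in ST-HSC than in MPP for Mecom (0.66, adjusted p = 0.016), Hlf (0.74, adjusted p = 0.016) and Prdm16 (0.95, adjusted p = 0.036), 3 of the 9. Of all genes, 0.465% were called, 0.183% higher and 0.282% lower. In MPP these 3 genes were lower in the aged, with log2 changes of -0.59, -0.87 and -1.30. In ST-HSC none of the 3 was called with age (0.072, -0.13 and -0.36). The 3 calls of the difference were lost when the fit held only the groups compared (adjusted p = 0.067 for Mecom, 0.051 for Hlf and 0.13 for Prdm16). They were also lost without the 4 libraries with high precursor markers, where the values were 0.53 for Mecom (adjusted p = 0.26), 0.54 for Hlf (adjusted p = 0.36) and 0.86 for Prdm16 (adjusted p = 0.41). The Prdm16 call was lost in 12 of 22 alternatives, 10 of which leave out a single library, and the Mecom and Hlf calls in 2 each. Of all genes, 66 were called in this comparison, 25 with only the groups compared, 179 in DESeq2 and 3 without the 4 libraries. The age effect in LT-HSC exceeded that in ST-HSC for 1 of the 9 genes, Lmo2 (0.36, adjusted p = 0.048), beside 4.05% of all genes, 1.65% higher and 2.39% lower. That call was lost in 17 of 22 alternatives, with adjusted p up to 0.14. Over all genes 575 were called, 964 in DESeq2 and 377 without young LT-HSC replicate 3. Mecom (0.39, adjusted p = 0.077) and Prdm16 (0.58, adjusted p = 0.096) did not pass there, although DESeq2 called both (adjusted p = 0.034 for Mecom and 0.047 for Prdm16).

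Partners of the TAL1 and LMO2 complex and the inhibitors of its E proteins were described next, 14 of 18 listed genes being tested. In LT-HSC 3 were higher and 2 lower in the aged, with a median log2 change of 0.05, beside 18.9% of all genes called. Tcf4, an E protein partner of TAL1, averaged 223 CPM in aged LT-HSC, against 153 CPM in young LT-HSC (log2 change 0.54, adjusted p = 1.9e-06). Tcf12, another E protein, averaged 261 CPM in aged LT-HSC, against 209 CPM in young LT-HSC (log2 change 0.32, adjusted p = 0.00075). Ssbp3, which binds LDB1, was lower in aged LT-HSC (log2 change -0.37, adjusted p = 0.0022) and in aged ST-HSC (log2 change -0.29, adjusted p = 0.042), where it was the 1 gene of the list called, beside 5.79% of all genes. In MPP 2 were higher and 2 lower, beside 9.79% of all genes called. Id2, which sequesters E proteins, averaged 68.0 CPM in aged MPP, against 5.97 CPM in young MPP (log2 change 3.51, adjusted p = 0.00016). Zfpm1, the GATA cofactor FOG1, averaged 65.8 CPM in aged MPP, against 98.5 CPM in young MPP (log2 change -0.58, adjusted p = 0.0016). Tcf4 was called higher in MPP too, at 270 CPM in the aged, against 215 CPM in the young. The Id2 mean was also higher in aged LT-HSC, at 41.3 CPM, against 11.0 CPM in young LT-HSC. In ST-HSC it was 17.2 CPM in the aged and 6.51 CPM in the young, with overlap between the groups.

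Among 15 RUNX and ETS family genes, relatives and partners of ERG and FLI1, the counts called with age were 3 in LT-HSC, 2 in ST-HSC and 1 in MPP, beside 18.9%, 5.79% and 9.79% of all genes in the same gates. In LT-HSC 3 were higher in the aged and 0 lower, namely Runx1 (log2 change 0.37, adjusted p = 0.0025), Elk4 (0.28, adjusted p = 0.020) and Ets1 (0.70, adjusted p = 0.036). In ST-HSC Runx3 (log2 change 0.50, adjusted p = 0.032) and Elf1 (0.23, adjusted p = 0.0498) were higher. In MPP Spi1, which encodes the myeloid factor PU.1, was the 1 gene called, at 95.7 CPM in aged MPP, against 68.2 CPM in young MPP (log2 change 0.49, adjusted p = 0.035). The median log2 change of the list was 0.05 in LT-HSC, -0.05 in ST-HSC and -0.06 in MPP, beside 0.00, 0.01 and -0.00 over all genes in the same gates.

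Among relatives of HLF, MECOM and PRDM16, 11 of 12 listed PAR and PRDM family genes were tested. In aged LT-HSC 0 were higher and 3 lower, with a median log2 change of -0.04, beside 18.9% of all genes called and 8.87% called lower. Tef, the PAR-family relative of HLF, was at 27.3, 26.5, 23.7 and 30.9 CPM in aged LT-HSC and at 70.0, 53.8, 67.9 and 61.2 CPM in young LT-HSC (log2 change -1.22, adjusted p = 1.8e-07). Every aged library of Tef lay below every young one. Dbp, the third PAR gene, had means of 1.57 CPM in aged LT-HSC, against 4.18 CPM in young LT-HSC (log2 change -1.39, adjusted p = 0.015), and Prdm10 was lower too (log2 change -0.51, adjusted p = 0.019). In ST-HSC Tef (log2 change -0.44, adjusted p = 0.036) and Prdm2 (-0.26, adjusted p = 0.044) were lower, beside 2.21% of all genes. In MPP 1 was higher and 1 lower, beside 9.79% of all genes called. Prdm11 was lower (log2 change -0.64, adjusted p = 0.023), and Prdm1, which encodes BLIMP1, was higher, at 33.4, 59.2, 28.5 and 108 CPM in aged MPP and between 0 and 2.65 CPM in young MPP (log2 change 5.38, adjusted p = 3.5e-05). The marker lists held no plasma cell markers, and whether other cells within the MPP gate carried the Prdm1 counts was not tested.

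The next list held 14 genes reported as direct targets of these factors. It shares genes with the lists above, Runx1 and Cbfa2t3 among them, and these are counted in each list. In LT-HSC over MPP, 12 of 14 were higher and 0 lower in aged mice, with a median log2 difference of 1.29, and 12 were higher and 1 lower in young mice, with a median of 1.04, beside medians over all genes of 0.02 in aged and 0.00 in young mice. Of all genes, 56.8% were called in the aged and 37.2% in the young comparison. With age, 4 of the 14 were higher and 1 lower in LT-HSC, beside 9.98% of all genes higher and 8.87% lower. Itga2b, which encodes the integrin CD41, was higher in aged LT-HSC (log2 change 0.83, adjusted p = 0.00027) and in aged ST-HSC (log2 change 0.89, adjusted p = 0.00069). In ST-HSC 1 of the 14 was higher and 1 lower, beside 3.58% of all genes higher and 2.21% lower.

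In MPP 2 of the 14 reported targets were higher and 5 lower in the aged, beside 5.53% of all genes higher and 4.27% lower. Eng, the co-receptor endoglin, was lower (log2 change -0.49, adjusted p = 0.00085), as was Cbfa2t3, the corepressor ETO2 (log2 change -0.48, adjusted p = 0.0068). The age effect in LT-HSC differed from that in MPP for 7 of the 14, 6 higher and 1 lower, beside 9.93% of all genes. The difference was -5.14 for Pf4, a platelet chemokine gene (adjusted p = 0.0040). Pf4 averaged 5.31 CPM in aged LT-HSC, against 30.8 CPM in young LT-HSC, where replicate 1 stood at 66.9 CPM and the other 3 libraries between 15.2 and 23.7 CPM. In aged MPP Pf4 averaged 8.81 CPM, with replicate 4 at 24.5 CPM, against 1.43 CPM in young MPP.

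**Figure D4:**
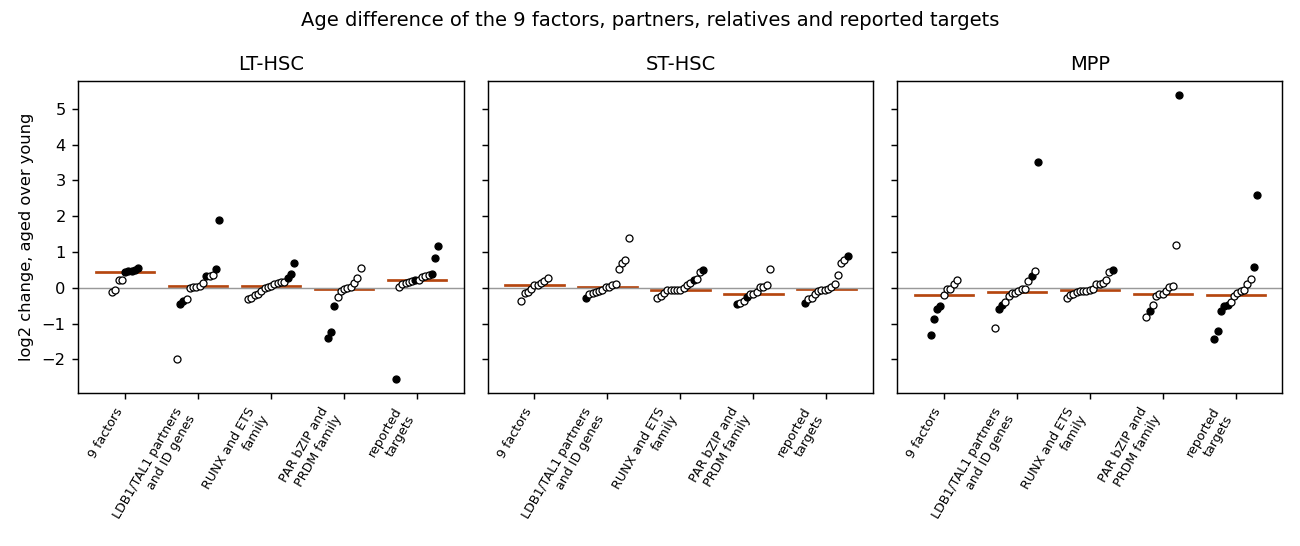
Log2 change, aged over young, in LT-HSC, ST-HSC and MPP of the 9 genes and of the 4 lists. Each point is a tested gene, filled where it passed an adjusted p of 0.05, and bars are medians. Genes shared between lists are plotted in each. The median of the 9 genes is 0.43 in LT-HSC and -0.21 in MPP, while single genes of the lists lie further from 0, up to 5.38 for Prdm1 in MPP.

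Over the 24 libraries, the genes whose pattern was most like that of Mecom were found by the root mean square difference of log2 CPM, each gene centred on its own mean, among 9458 genes averaging at least 10 CPM. Dst stood nearest to Mecom, at 0.191, then Itsn1 at 0.202, Rbfox2 at 0.245, Samd12 at 0.246 and Scarf1 at 0.251, against a median of 1.17 over all candidates. For Hlf the nearest were Crispld1 at 0.239, Nwd1 at 0.276, Zfp532 at 0.290, Adam22 at 0.295 and Ppp1r9a at 0.296, against a median of 0.772. Within the 9 genes, Erg and Lmo2 were the most alike pair, at 0.171, followed by Fli1 and Lmo2 at 0.239 and Erg and Fli1 at 0.263. Mecom was nearest to Prdm16 among them, at 0.383, then to Gata2, at 0.454. These values describe the same 24 libraries and share their depth and gates. The measure is not scaled to the span of a gene, so genes of narrow span lie close together more readily. Between group means Erg spanned 1.80-fold and Lmo2 1.91-fold, against 9.04-fold for Mecom and 14.4-fold for Prdm16.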

How the data were processed

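Counts per gene were used as the authors deposited them. Reads were trimmed with Trim Galore, aligned with HISAT2 to mm10 and counted with featureCounts, per the submitters' processing notes. Annotation, strand option and tool release were not given in the sources used here. Library preparation, which per the labels' protocols used not-so-random primers and Nextera XT, does not mark strand or molecules, so the counts include PCR copies.

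All 24 libraries were fitted together in edgeR 4.0.16 (R 4.3.3, limma 3.58.1) with TMM factors, filterByExpr and a robust quasi-likelihood fit with 1 mean for each group. The 12 contrasts were each adjusted by Benjamini-Hochberg over 14205 genes, which held 99.9% of counts, at 0.05. The biological coefficient of variation was 0.213, and 18 residual degrees of freedom were left. Errors of log2 changes are the log2 change divided by the square root of F, and 95% intervals use the t distribution. The script was tested on simulated data. Alternatives were relative log expression factors, no filter, DESeq2 1.42.0, only the groups compared, a replicate block and leaving out each library, and, added after seeing the data, leaving out 4 libraries and the longest transcript as length.

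The genes, lists and comparisons were chosen with earlier results of these data known. Named were all 9 genes, at most 3 genes of a list in a comparison with the smallest p among those called, and the 5 genes most like Mecom and Hlf. The list genes given for single libraries, the Pf4 values in single libraries and the Id2 values in LT-HSC and ST-HSC were chosen after their values were seen. Sequences are from RefSeq on GRCm38.p6 and exons from GENCODE M21, which is the build the submitters call mm10. Fli1 and Lmo2 promoters are not used here. Some genes of the list of reported targets are counted in the list but are not reported here by name.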

Additional observations from a re-analysis of the deposited data

Results flagged for a closer look

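In 3 of the 54 sets of 4 libraries (9 genes in 6 groups), 1 library lay far from the other 3 by Dixon's ratio, about as many as the 1 in 20 that chance gives. These were Mecom at 61.5 CPM in aged MPP replicate 3, Hlf at 1546 CPM in young ST-HSC replicate 3 and Lmo2 at 953 CPM in young ST-HSC replicate 4.

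The age effect differed between gates, by a test of the difference itself, in 10 cases. In each the first-named gate had the higher value. Between LT-HSC and MPP, 9.93% of all genes were called. The log2 difference there was 1.05 for Mecom, 1.09 for Hlf, 1.53 for Prdm16, 0.59 for Gata2, 0.67 for Erg and 0.45 for Lmo2. Between ST-HSC and MPP, with 0.465% of all genes called, it was 0.66 for Mecom, 0.74 for Hlf and 0.95 for Prdm16. These 3 calls were lost with only the groups compared, and that of Prdm16 in 12 of 22 alternatives. Between LT-HSC and ST-HSC, with 4.05% of all genes called, the log2 difference was 0.36 for Lmo2, a call lost in 17 of 22 alternatives.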

How the results depend on the processing

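Of 1728 alternative values for the 108 gene results, 1632 kept both direction and side of the threshold, 53 lost the call, 9 gained one and 34 changed sign, none of the last past the threshold. The 9 age calls in LT-HSC and MPP held in all 14 alternatives. With 7307151 to 12946550 counts a library and 4 libraries a group, the intervals of genes not called still hold changes up to the bounds given. Leaving out 4 libraries leaves 1 aged ST-HSC library, which is assumed to vary like the others. Wherever a value below changed, the cause was not tested.

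Whether the replicate numbers pair the libraries is not given by the labels and cannot be decided from 4 libraries a group. Same-numbered libraries of 1 age correlated between -0.029 and 0.13 in the aged (median 0.046) and between -0.041 and 0.12 in the young (median 0.035). Differently numbered libraries of 1 age had median correlations of -0.0099 in the aged and -0.016 in the young. With the replicate block, the LT-HSC minus ST-HSC difference called 2 of the 9 genes and Erg in young LT-HSC minus ST-HSC was -0.00093. The count of genes called with age was 2671 in LT-HSC, 818 in ST-HSC and 1397 in MPP under the block, against 2678, 823 and 1391 without it.

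With only the groups compared, the age comparison in ST-HSC called 534 genes (823 otherwise), the ST-HSC minus MPP difference 25 (66) and 0 of the 9 (3), and Erg in young LT-HSC minus ST-HSC was -0.0066 (0.0024). DESeq2 called 964 genes in the LT-HSC minus ST-HSC difference (575), with 3 of the 9 (1), and 179 in the ST-HSC minus MPP difference. Without a filter, 0 of the 9 were called in the LT-HSC minus ST-HSC difference. Lmo2 in young LT-HSC minus ST-HSC (-0.0089) was 0.0038 with relative log expression factors and 0.0035 in DESeq2. Without the 4 libraries, calls were 184 in ST-HSC with age, 2640 in aged LT-HSC minus ST-HSC (4582), 1353 in aged ST-HSC minus MPP (4244) and 3 in the ST-HSC minus MPP difference, with 0 of the 9 in that difference and 0 in the LT-HSC minus ST-HSC one. In that setting the ST-HSC age change was -0.042 for Mecom, -0.072 for Erg and -0.026 for Lmo2, Hlf in aged LT-HSC minus ST-HSC was 0.16, Lmo2 in young LT-HSC minus ST-HSC 0.0099, and the ST-HSC minus MPP difference 0.011 for Fli1 and -0.017 for Lmo2.

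Leaving out 1 library at a time, genes called ran between 503 and 713 in ST-HSC with age (lowest without young ST-HSC replicate 3), 914 and 1358 in MPP (lowest without aged MPP replicate 4) and 377 and 822 in the LT-HSC minus ST-HSC difference (lowest without young LT-HSC replicate 3), with 0 to 2 of the 9 in the last. Signs changed for Lmo2 (-0.049 to 0.037) and Erg (-0.018 to 0.058) in young LT-HSC minus ST-HSC, Hlf in aged LT-HSC minus ST-HSC (-0.093 to 0.057), Lyl1 in young ST-HSC minus MPP (-0.088 to 0.041), Lmo2 (-0.064 to 0.042) and Gata2 (-0.14 to 0.040) in MPP with age, Tal1 in ST-HSC with age (-0.086 to 0.0047), Fli1 in the ST-HSC minus MPP difference (-0.081 to 0.015) and Lyl1 in the LT-HSC minus ST-HSC difference (-0.013 to 0.13).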
